A study of Mus musculus with 4 samples.

Results

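The MHC class I presentation genes described here are 10 genes of the 32285 in the count tables: the heavy chain genes H2-K1, H2-D1, H2-T23 and H2-M3, the light chain gene B2m, the peptide transporter genes Tap1 and Tap2, the loading factor gene Tapbp, the immunoproteasome subunit gene Psmb8 and the transactivator gene Nlrc5. They were taken by symbol from a fixed list, and all 10 were found. Ascites cells of female FVB mice carrying Br-Luc tumors were profiled 6 weeks after the tumor cells were injected, with 10x Genomics 3′ single-cell RNA sequencing. Br-Luc is a mouse ovarian tumor line that lacks p53 and Brca1 and carries Myc and activated Akt. The mice were given a complex of jetPEI, a polymer carrier, with either a control siRNA (libraries labelled siCont, n = 2) or an siRNA against Fxr1 modified with locked nucleic acids (libraries labelled siFXR1-LNA, n = 2), by intraperitoneal injection. The methods name the control as siCont-LNA, so the tumor line, the carrier and the modification are common to all 4 libraries. Each library pooled the ascites of several mice, and the p-values below measure the spread between 2 pooled samples a group.

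Class I molecules show peptides from inside the cell to CD8 T cells and to receptors of NK cells. The proteasome cuts proteins into peptides, and its interferon-induced form carries the subunit encoded by Psmb8 in place of a constitutive subunit. The transporter made of TAP1 and TAP2 carries the peptides into the endoplasmic reticulum, where tapasin (Tapbp) bridges it to heavy chains paired with β2-microglobulin (B2m). H2-K1 and H2-D1 encode classical heavy chains, and H2-T23 and H2-M3 encode nonclassical ones that present signal peptides and formylated peptides. NLRC5 is a transactivator of these genes, itself induced by interferon-gamma. Dendritic cells are known for high class I loading capacity, which they use in cross-presentation.

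In the GRCm38 annotation (GENCODE vM21) 8 of the 10 genes lay on chromosome 17, with H2-K1 at chr17:33996017-34000347, Tapbp at chr17:33915899-33929292, Tap1 at chr17:34187553-34197225, Psmb8 at chr17:34197721-34201454, Tap2 at chr17:34203527-34216321, H2-D1 at chr17:35262730-35267499, H2-T23 at chr17:36029773-36032855 and H2-M3 at chr17:37270220-37274484. B2m lay at chr2:122147686-122153083 and Nlrc5 at chr8:94434356-94527272. The 3′ reads count gene totals and do not tell exons apart. FVB mice carry another H-2 haplotype than the reference, and H2-K1, H2-D1 and the H2-Q genes are related in sequence. Reads may thus be lost or split among them, which was not measured, and the values of these genes are uncertain.

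Promoters of 8 members (250 bases before to 50 after the start, RefSeq, GRCm38.p6) were searched on both strands for letters known from class I promoters. AANNGAAA is the core of an interferon-stimulated response element, TGACG that of an X2-type box, CCAAT a Y-type box, and GGGNNTTNC resembles a site for NF-kappaB. AANNGAAA was present in 5 of the 8, against 23.9% of all 32851 promoters, TGACG in 5 against 20.8%, CCAAT in 7 against 37.4%, and GGGNNTTNC in 3 against 15.2%. TGACG and CCAAT stood together in 5 of the 8, against 7.73% of all promoters, and all of AANNGAAA, TGACG and CCAAT in 4, against 1.59%. A match describes letters and is not a bound site. The 4 promoters below are shown because H2-T23 was the member called in most cell types, H2-D1 and B2m encode a classical heavy chain and the shared light chain, and Tap1 encodes the transporter. Capitals mark AANNGAAA, TGACG and CCAAT on either strand.
H2-T23 (chr17:36032652-36032951, minus strand): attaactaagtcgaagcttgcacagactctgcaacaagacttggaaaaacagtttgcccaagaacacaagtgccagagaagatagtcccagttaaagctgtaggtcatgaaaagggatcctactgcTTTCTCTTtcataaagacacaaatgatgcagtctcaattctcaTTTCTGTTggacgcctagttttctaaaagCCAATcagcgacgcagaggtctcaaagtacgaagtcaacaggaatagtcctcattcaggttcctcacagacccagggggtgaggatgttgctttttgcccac
H2-D1 (chr17:35262844-35263143, plus strand): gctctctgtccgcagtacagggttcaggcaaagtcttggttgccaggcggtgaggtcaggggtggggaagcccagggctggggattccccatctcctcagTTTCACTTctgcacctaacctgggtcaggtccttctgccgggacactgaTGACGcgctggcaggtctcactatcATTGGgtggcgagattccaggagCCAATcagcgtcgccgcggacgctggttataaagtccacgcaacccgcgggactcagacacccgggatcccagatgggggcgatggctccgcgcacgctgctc
B2m (chr2:122147437-122147736, plus strand): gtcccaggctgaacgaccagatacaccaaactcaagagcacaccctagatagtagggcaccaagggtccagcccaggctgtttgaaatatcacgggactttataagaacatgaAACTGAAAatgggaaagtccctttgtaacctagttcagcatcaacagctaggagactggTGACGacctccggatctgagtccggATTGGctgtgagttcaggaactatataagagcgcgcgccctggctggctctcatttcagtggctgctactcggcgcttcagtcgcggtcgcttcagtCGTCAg
Tap1 (chr17:34187306-34187605, plus strand): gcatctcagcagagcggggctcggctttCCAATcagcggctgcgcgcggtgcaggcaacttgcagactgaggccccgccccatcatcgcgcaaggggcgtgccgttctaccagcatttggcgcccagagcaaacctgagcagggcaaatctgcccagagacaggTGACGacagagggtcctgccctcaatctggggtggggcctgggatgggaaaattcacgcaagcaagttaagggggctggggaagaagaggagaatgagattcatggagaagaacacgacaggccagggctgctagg
H2-D1 and B2m hold all 3 of the marked motifs. H2-T23 holds AANNGAAA at 2 places and CCAAT at 1, with no TGACG in this window, and Tap1 holds TGACG and CCAAT with no AANNGAAA. In the Psmb8 window (chr17:34197945-34198244) none of the 4 motifs was found. This window, that of Tapbp (chr17:33919228-33919527) and that of H2-D1 lie wholly past the gene starts of the GENCODE annotation above. The RefSeq starts used here thus differ from those starts, and sequence before the GENCODE starts of these genes was not searched.

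The tables held between 17309 and 54665 barcodes a library and between 78179267 and 113606837 UMIs, and between 16874 and 54344 cells a library passed the filters. Cells were clustered and named from marker genes: 2859 tumor-type cells, 14288 macrophages, 11610 granulocytes, 7247 B cells, 6646 T cells, 1706 cDC2, 781 cDC1, 714 mature DCs, 332 mast cells, 140 NK cells, 191 platelets and 42781 erythrocyte barcodes, with 43349 left unnamed. Tumor-type cells carried Wt1 and keratins (Krt8, Krt18), which mesothelial cells also express. Their subcluster 7.2 (417 cells) went against the name: 4 of 5 fibroblast markers but 3 of 8 tumor-type markers were raised in it, and its 10 leading genes held 1 fibroblast marker and no tumor-type marker. Tumor-type markers were also few in 7.0 (1424 cells, 3 of 8 raised) and 7.1 (672 cells, 4 of 8), against 8 of 8 in 7.3 (346 cells). None of these 3 had a tumor-type marker among its 10 leading genes either, so the name is weakly borne out outside 7.3. Subcluster 7.2 is called by its number, and the calls over all tumor-type cells are given with and without it. Hemoglobin genes took 29.6% and 41.1% of the siCont UMIs and 10.0% and 9.12% of the siFXR1-LNA UMIs. Between 10.8% and 15.1% of the kept cells of a library had a barcode also kept in another library, and the counts of called members were the same in all 9 types without those cells. Fxr1, the gene the siRNA is aimed at, stood in tumor-type cells at 109 and 125 (siCont) and 139.9 and 139 (siFXR1-LNA) CPM, the counts-per-million share of a gene among all UMIs of a cell type in a library (log2 fold change 0.28 ± 0.23 (SE), adjusted p = 0.504). Its fitted change there was upward and missed the threshold, and no cell type had a called change, so the groups are named by their library labels throughout.

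Levels are given as lowest to highest CPM of the 4 libraries, by falling median over types. In a pair of values for a group, replicate 1 comes first. Among the 9 types with at least 10 cells in every library, mature DCs, the Ccr7-expressing cells that carry antigen to lymph nodes, had the highest median of the 4 libraries for 7 of the 10 members, and tumor-type cells the lowest for 8 of the 10, with or without subcluster 7.2. Few neighbours in these orders were far apart: 8 of the 80 neighbouring pairs of types had ranges over the 4 libraries that did not overlap, and 34 of the 80 kept their order in all 4 libraries. The levels compare one gene between types and are a description with no test.

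Of the classical heavy chains, H2-K1 was at 1734 to 3481 CPM in mature DCs, 828 to 2128 in T cells, 983 to 1639.7 in cDC2, 974 to 1664 in macrophages, 725 to 1646 in B cells, 948 to 1150.2 in cDC1, 353 to 546 in granulocytes, 340.5 to 443 in mast cells and 195 to 517 in tumor-type cells. Types from T cells to cDC1 overlapped in H2-K1, and cDC1 stood above granulocytes without overlap. H2-D1 was at 1478 to 3465 in mature DCs, 1363 to 2692 in macrophages, 1126 to 1844 in cDC1, 1072 to 2172 in cDC2, 615 to 1634 in T cells, 582 to 1432 in B cells, 629.8 to 1315 in granulocytes, 418 to 569 in mast cells and 169.9 to 357 in tumor-type cells. Here tumor-type cells, mast cells and granulocytes stood apart from each other in that rising order. Macrophages followed mature DCs for H2-D1 and cDC2 for H2-K1, overlapping their neighbours in both.

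Of the nonclassical heavy chains, H2-T23 was at 287 to 693 CPM in mature DCs, 233 to 682 in cDC2, 289 to 527 in cDC1, 140.1 to 402 in B cells, 108 to 367 in T cells, 124 to 416 in macrophages, 82.5 to 188 in granulocytes, 47.9 to 156 in mast cells and 41.7 to 118 in tumor-type cells. No neighbouring pair in this order was apart. H2-M3 was at 32.7 to 76.4 in cDC2, 33.4 to 71.6 in cDC1, 37.7 to 88.9 in mature DCs, 33.8 to 58.9 in B cells, 38.6 to 62.5 in macrophages, 22.5 to 49.4 in T cells, 7.98 to 55.8 in mast cells, 5.73 to 13.8 in tumor-type cells and 5.11 to 10.2 in granulocytes. Neighbours among the last 3 types overlapped, and granulocytes, not tumor-type cells, had the lowest median.

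The light chain gene B2m was at 2759 to 3987 CPM in mature DCs, 1595 to 2373 in macrophages, 1432 to 2109.9 in cDC2, 943 to 1760.2 in T cells, 1321 to 1482 in cDC1, 942 to 1439.9 in B cells, 744 to 1411 in mast cells, 658 to 927 in granulocytes and 322 to 628 in tumor-type cells. Mature DCs stood above macrophages, and granulocytes above tumor-type cells, without overlap.

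The transporter genes had another leading type. Tap1 was at 151 to 252 CPM in cDC1 (the cross-presenting dendritic cells), 110.3 to 302 in mature DCs, 88.7 to 192 in cDC2, 52.97 to 111 in T cells, 55.9 to 104 in B cells, 43.9 to 109.7 in macrophages, 27.3 to 44.7 in granulocytes, 11.2 to 25.1 in mast cells and 13.03 to 18.2 in tumor-type cells. Tap2 was at 107 to 239 in cDC1, 122 to 228 in mature DCs, 53.5 to 124 in T cells, 63.02 to 126 in cDC2, 45.4 to 89.9 in B cells, 32.6 to 59.2 in macrophages, 30.3 to 48.2 in granulocytes, 9.73 to 78.1 in mast cells and 18.8 to 36.3 in tumor-type cells. cDC1 and mature DCs overlapped for both transporter genes, and cDC1 was higher in 2 of the 4 libraries for each.

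Tapbp was at 209 to 407 CPM in mature DCs, 165 to 249.7 in cDC1, 158 to 244 in cDC2, 102 to 170.4 in macrophages, 80.3 to 123 in B cells, 88.3 to 131 in T cells, 54.7 to 113 in tumor-type cells, 92.1 to 130.3 in granulocytes and 33.5 to 47.9 in mast cells. Tumor-type cells were seventh of the 9 types and overlapped with B cells, T cells and granulocytes, and mast cells stood below granulocytes without overlap. Psmb8 was at 648 to 1168 in mature DCs, 447 to 938 in cDC1, 322 to 729 in cDC2, 96.3 to 407 in T cells, 150.5 to 419 in macrophages, 106 to 348 in B cells, 100.4 to 204 in mast cells, 51.4 to 137 in granulocytes and 22.9 to 72.9 in tumor-type cells. The 3 dendritic cell types led in the same order in all 4 libraries.

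The transactivator gene Nlrc5 was at 90.02 to 259 CPM in mature DCs, 95.8 to 177 in T cells, 35.6 to 76.5 in cDC1, 31.5 to 88.6 in cDC2, 22.1 to 65.5 in B cells, 14 to 59.9 in macrophages, 11.2 to 31.9 in mast cells, 12.2 to 22.2 in granulocytes and 4.83 to 16.3 in tumor-type cells. T cells stood above cDC1 without overlap and overlapped with mature DCs, which were higher in 2 of the 4 libraries. NK cells, with 72, 54, 5 and 9 cells a library, were left out of the order. Their Nlrc5 levels were 119.7, 129.7, 187 and 106.

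**Figure D1:**
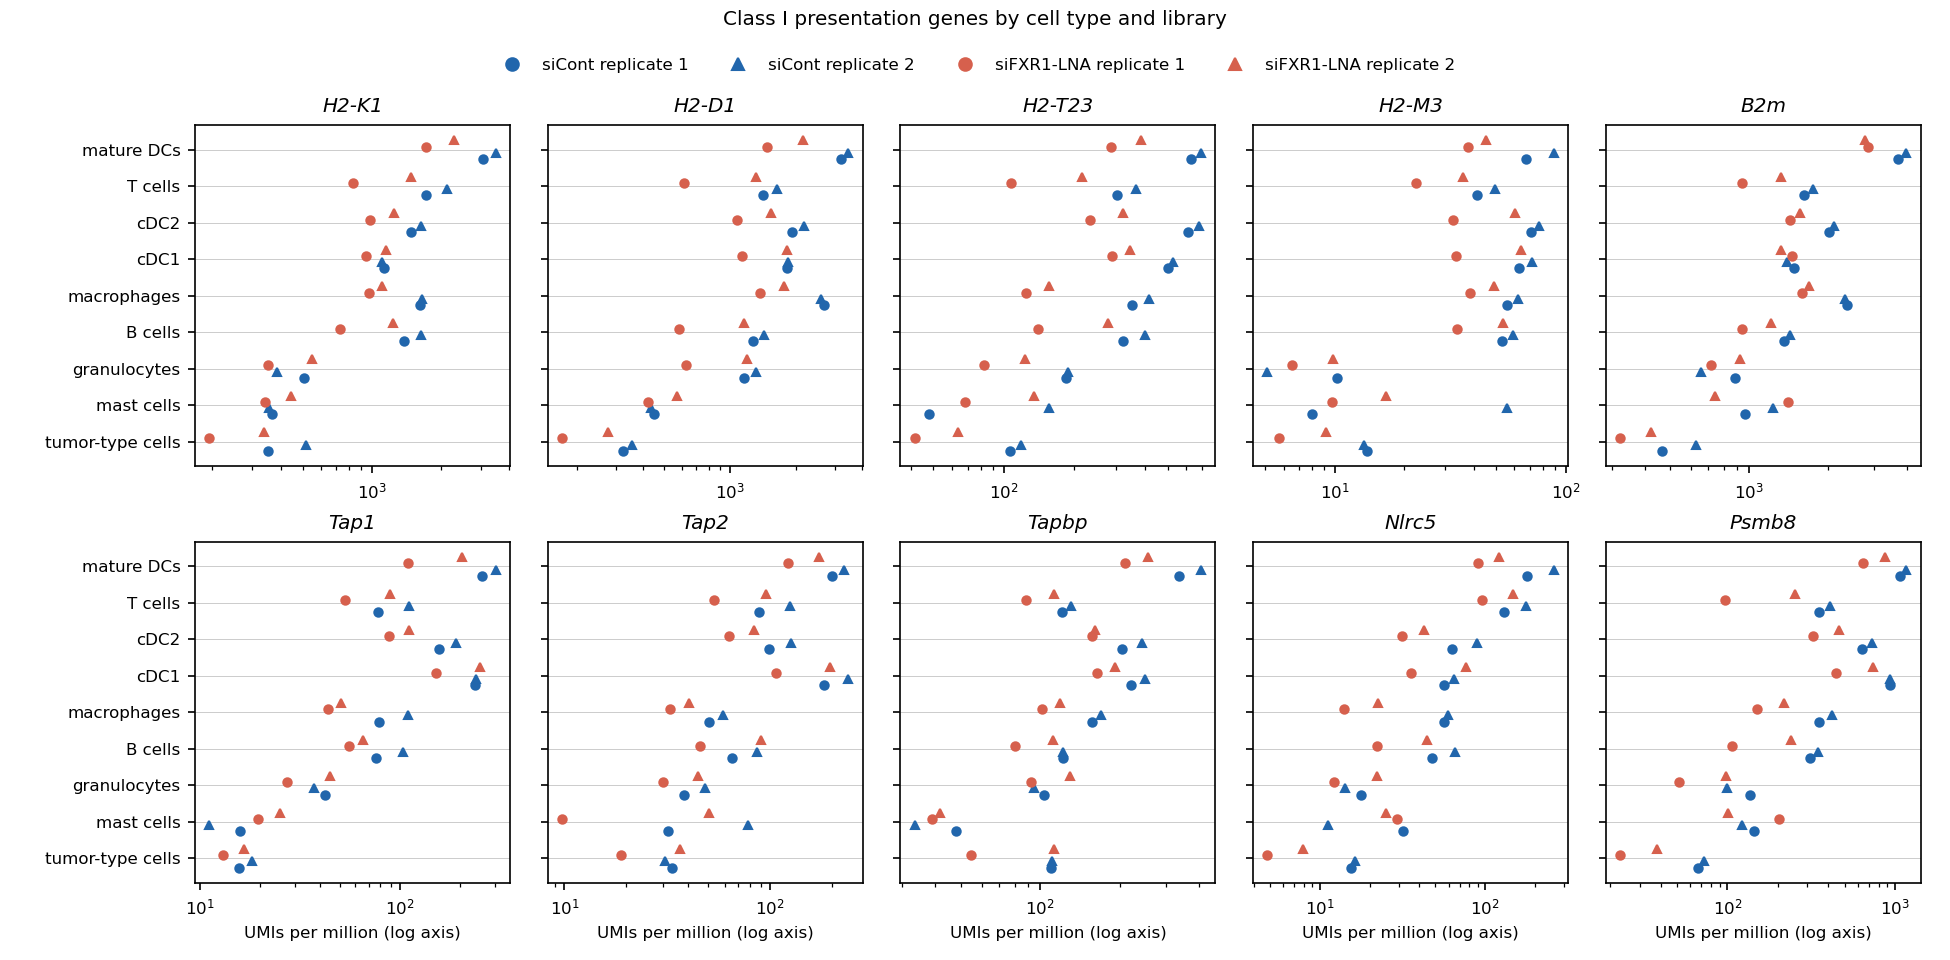
Level of each of the 10 genes (CPM, log axis, a separate scale in each panel) in 9 cell types, 1 point a library: blue for siCont, red for siFXR1-LNA, circles for replicate 1 and triangles for replicate 2. Tumor-type cells, at the bottom, sit lowest in most panels and mature DCs, at the top, highest. In macrophages, cDC2 and mature DCs both red points lie below both blue points in all 10 panels. The share of all genes with that order was not counted.

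Tumor-type cells were lower than macrophages, cDC1, cDC2 and mature DCs for all 10 members in all 4 libraries, and lower than B cells and T cells for 9 of the 10. Against mature DCs the median ratio over the libraries ran from 3.35-fold to 19.5-fold, and against macrophages from 1.48-fold to 7.65-fold. Granulocytes were above tumor-type cells in all 4 libraries for 6 of the 10 members and mast cells for 3. Erythrocyte barcodes were below them, in the median, for all 10.

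The tumor-type cells fell into 4 subclusters that differed in class I level. B2m stood at 1224, 1539, 645 and 669.7 CPM in subcluster 7.2 and at 625, 1463, 729 and 822 in subcluster 7.3, each over siCont replicates 1 and 2 and siFXR1-LNA replicates 1 and 2. In subcluster 7.1 it was 158, 69.99, 146 and 188, and in subcluster 7.0, which held 12 and 6 cells of the siCont libraries, 205, 163 and 189 in the 3 libraries with at least 10 cells. Subclusters 7.2 and 7.3 thus stood above 7.0 and 7.1 in every library. H2-K1 showed the same split, with 989.6, 1261, 425 and 464 in 7.2 and 478, 1217, 473 and 680.5 in 7.3 against 99.04, 63.3, 71.2 and 290.2 in 7.1 and 25.6, 83.5 and 149 in 7.0. In 7.3, where the name was best borne out, H2-K1 thus lay above the range of mast cells (340.5 to 443) in every library. B2m there overlapped the range of granulocytes (658 to 927). The low rank of the pooled tumor-type cells was thus not shared by 7.3 for H2-K1.

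The 2 low subclusters were rich in the nuclear transcript Malat1, at 25629.9, 24361 and 25459.5 CPM in 7.0 and 36965, 39997, 21083 and 35672 in 7.1, against 7084, 5869.7, 5114 and 3987 in 7.3. Subcluster 7.3 held the most keratin, with Krt18 at 438, 624, 478 and 479, and little of the leukocyte gene Ptprc (22.4, 7.95, 9.34 and 13.8). Subcluster 7.2 carried Ptprc at 188, 84.1, 96.6 and 118 and the collagen gene Col1a1 at 358, 1183, 40.6 and 360.3. The part of nuclear RNA, of leukocyte RNA and of stromal cells in these levels was not tested.

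Free RNA in droplets gives UMIs to cells that do not express a gene, and erythrocyte barcodes were used as a guide to that background. Free RNA was not told apart there from transcripts of the erythrocytes themselves. Erythrocyte barcodes held 0.372 to 0.9199 B2m UMIs a cell over the 4 libraries, against 0.667 to 1.21 in subcluster 7.0, 0.538 to 1.71 in 7.1, 4.95 to 17 in 7.2 and 6.62 to 14.7 in 7.3. H2-K1 was at 0.1697 to 0.3696 UMIs a cell in erythrocyte barcodes, 0.0833 to 0.953 in 7.0, 0.487 to 2.64 in 7.1, 3.27 to 13.9 in 7.2 and 5.06 to 12.2 in 7.3. Subclusters 7.2 and 7.3 stood above the erythrocyte barcodes for both genes in every library. Subcluster 7.1 did so too, by less than 7.2 and 7.3. For B2m, subcluster 7.0 held 0.667, 0.849 and 1.21 in siCont replicate 1 and siFXR1-LNA replicates 1 and 2. Erythrocyte barcodes held 0.609, 0.748 and 0.9199 there. For H2-K1, subcluster 7.0 was below them in siCont replicate 1 (0.0833 against 0.228) and above them in both siFXR1-LNA libraries. Pooled over libraries, ranges of 7.0 overlapped theirs for both genes, and those of 7.1 for B2m. Levels of 7.0 and 7.1 thus lay nearer the background than those of 7.2 and 7.3.

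Counted by cells, after each cell was thinned to 1000 UMIs, 49.6% and 40.3% of tumor-type cells of the siCont libraries and 41.9% and 56.2% of those of the siFXR1-LNA libraries had a UMI of any of the 10 members. For this share of tumor-type cells with a class I UMI, the difference of the group means was 4.09 percentage points (exact permutation test over the 4 libraries, two-sided p = 0.667, where the smallest p that 2 against 2 allows is 0.333). Without siFXR1-LNA replicate 2 the difference was -3.06 points and without siCont replicate 2 it was -0.563 points, so its direction rested on single libraries. Erythrocyte barcodes gave 50.4%, 30.3%, 47.5% and 50.7% in the same order of libraries, a share like that of the tumor-type cells. Erythrocyte markers, mostly hemoglobin, took 455377 to 798608 CPM in erythrocyte barcodes and 16127 to 88782 CPM in tumor-type cells. The 1000 UMIs drawn thus held unlike amounts of other RNA, and the part of free RNA in either share was not tested. Median depths were 5254.5 to 8562 UMIs in the tumor-type cells used and 1758 to 2951.5 in the erythrocyte barcodes, and 15, 2, 7 and 3 tumor-type cells below 1000 UMIs were left out. Unthinned, 84.6% to 95.7% of tumor-type cells and 55.6% to 84.5% of erythrocyte barcodes had a member UMI. In macrophages the thinned shares were 98.8% and 97.9% against 92.8% and 96.1%.

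**Figure D2:**
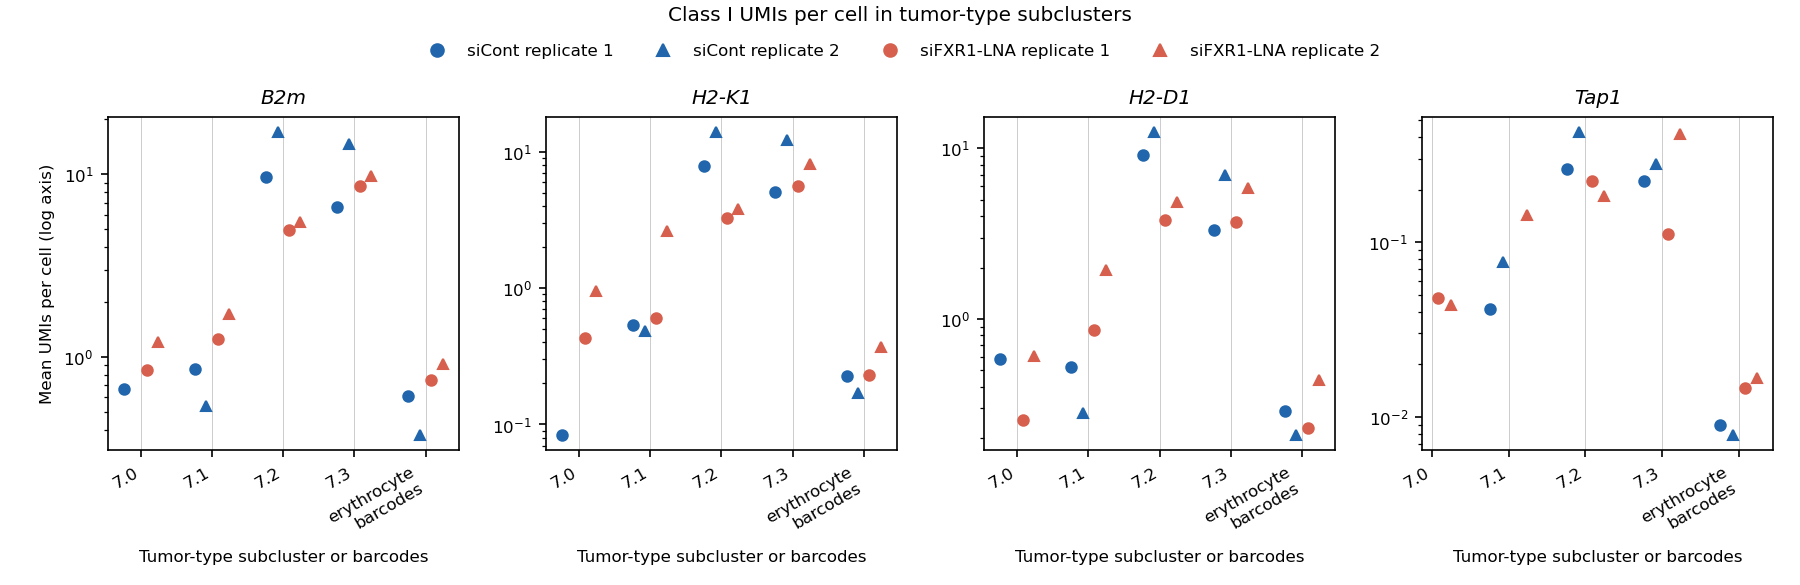
Mean UMIs a cell (log axis) of B2m, H2-K1, H2-D1 and Tap1 in the 4 subclusters of tumor-type cells and in erythrocyte barcodes, 1 point a library, with colors for the group and shapes for the replicate; a library with under 10 cells or with 0 UMIs has no point. Subclusters 7.2 and 7.3 lie above 7.0, 7.1 and the erythrocyte barcodes for B2m and H2-K1.

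The study's comparison was between the siFXR1-LNA and the siCont libraries. Summed over a cell type, members were fitted lower in the siFXR1-LNA libraries: all 85 fitted changes of a member in a type (10 members in 8 types and 5 in mast cells, where the other members had too few UMIs) lay below 0. Such sums mix subclusters. In tumor-type cells, macrophages, granulocytes, B cells and T cells the groups differed in their subclusters, and within shared subclusters some members were fitted higher, as given below. Of the 85, 8 passed the test (edgeR quasi-likelihood test on UMI sums, Benjamini-Hochberg adjusted over all genes of a type, threshold 0.05), and they fell on 5 genes in 4 types. H2-T23 was called in all 4 of these types. The types share their libraries and free RNA, so the 9 types are not 9 independent comparisons. Both siFXR1-LNA libraries lay below both siCont ones for all 10 members in macrophages, cDC2 and mature DCs. They did so for 8 members in B cells, 7 in T cells, 7 in tumor-type cells, 3 in cDC1, 2 in granulocytes and 0 of 5 in mast cells. The share of all genes with that order was not counted, so these counts have no background beside them.

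Over all tumor-type cells, subcluster 7.2 included, H2-T23 and Psmb8 fell, 2 of the 10 members, where 4.89% of all tested genes were called lower. Without 7.2 neither H2-T23 in tumor-type cells (log2 fold change -0.94) nor Psmb8 in tumor-type cells (-0.97) was called, nor any other member. H2-T23 stood at 106 and 118 (siCont) and 41.7 and 63.99 (siFXR1-LNA) (CPM). The groups did not overlap (log2 fold change -1.08 ± 0.25 (SE), adjusted p = 0.0292), and without 7.2 its levels were 90.2 and 93.5 (siCont) and 35.6 and 60.8 (siFXR1-LNA). Psmb8 stood at 66.7 and 72.9 (siCont) and 22.9 and 37.8 (siFXR1-LNA). It too was lower in both siFXR1-LNA libraries (log2 fold change -1.20 ± 0.27 (SE), adjusted p = 0.0251), as it was without 7.2, at 46.6 and 36.05 (siCont) and 12.8 and 32.1 (siFXR1-LNA). Nlrc5, at 15.4 and 16.3 (siCont) and 4.83 and 7.88 (siFXR1-LNA), missed the threshold (log2 fold change -1.33 ± 0.38 (SE), adjusted p = 0.0606). The other 7 members had fitted log2 fold changes from -0.90 (H2-M3) to -0.15 (Tap1). The median over the 10 members was -0.65, against 0.00 over all genes tested. The median mitochondrial share of a tumor-type cell's UMIs was 1.27% and 1.04% (siCont) and 2.68% and 4.01% (siFXR1-LNA), higher in the siFXR1-LNA libraries, and its part in the result was not tested.

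The calls in tumor-type cells depended on the library and the subcluster. Without siFXR1-LNA replicate 1 no member was called, without siFXR1-LNA replicate 2 there were 6, and without either siCont library 1. The subclusters differed in size between the groups. Subcluster 7.0 made up 76.6% and 66.1% of the siFXR1-LNA tumor-type cells and 1.42% and 4.88% of the siCont ones, and 7.1 the reverse with 1.90% and 3.37% against 65.5% and 63.4%. Within subcluster 7.2, with 106, 14, 237 and 60 cells, H2-T23 (log2 fold change -1.70 ± 0.31 (SE), adjusted p = 0.0416) and Psmb8 (log2 fold change -1.85 ± 0.34 (SE), adjusted p = 0.0416) were called, where 1.82% of genes were called in either direction. There H2-T23 stood at 201 and 259 (siCont) and 65.3 and 81.4 (siFXR1-LNA), and Psmb8 at 183 and 285 (siCont) and 62.05 and 69.2 (siFXR1-LNA). Within subcluster 7.3 the edgeR test called none of 9 members (2 with an unadjusted p under 0.05, background 2.72%), and H2-T23 at 180.2 and 290.3 (siCont) and 92.4 and 111 (siFXR1-LNA) missed the threshold (log2 fold change -1.03 ± 0.27 (SE), adjusted p = 0.0616). Within 7.1, with 552, 78, 28 and 14 cells, none of 4 tested was called, nor did any have an unadjusted p under 0.05 (background 0.0285%). B2m, H2-K1 and H2-D1 were fitted higher there in the siFXR1-LNA libraries (log2 fold changes 0.39, 0.93 and 0.99) and Tapbp lower (-0.05). Pooled over 7.1, 7.2 and 7.3, which both groups shared, no member was called and 5 of 10 were fitted higher. The median over members was -0.04 there, against -0.65 over all tumor-type cells. In tumor-type cells without 7.2, 3 members had an unadjusted p under 0.05, against 2835 of all 12501 genes. Backgrounds within subclusters, here and below, are shares of genes past the adjusted threshold. The shares of genes with an unadjusted p under 0.05 are not given there.

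In macrophages H2-T23 and Nlrc5 fell, again 2 of the 10 members, where 9.53% of genes were called lower. H2-T23 stood at 351 and 416 (siCont) and 124 and 156 (siFXR1-LNA) CPM (log2 fold change -1.27 ± 0.19 (SE), adjusted p = 0.0156). Nlrc5 stood at 55.9 and 59.9 (siCont) and 14 and 22.5 (siFXR1-LNA) (log2 fold change -1.48 ± 0.24 (SE), adjusted p = 0.0188). Both genes were lower in both siFXR1-LNA libraries, as were the other 8 members, an order whose share over all genes was not counted. Tap1, at 78.6 and 109.7 (siCont) and 43.9 and 50.8 (siFXR1-LNA), and Psmb8, at 350.1 and 419 (siCont) and 150.5 and 217 (siFXR1-LNA), had adjusted p = 0.0558 and 0.0557. B2m was among the least changed, at 2373 and 2331 (siCont) and 1595 and 1693 (siFXR1-LNA) (log2 fold change -0.33 ± 0.19 (SE), adjusted p = 0.265). The median over members was -0.52, against 0.01 over all genes. DESeq2 called 6 members and edgeR without siFXR1-LNA replicate 1 called 0, without siCont replicate 2 or siFXR1-LNA replicate 2 called 1, and without siCont replicate 1 called 3.

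cDC2 made up a single subcluster present in all 4 libraries. There H2-T23 fell, 1 of the 10 members, where 1.95% of genes were called lower. It stood at 611 and 682 (siCont) and 233 and 322 (siFXR1-LNA) CPM (log2 fold change -1.29 ± 0.20 (SE), adjusted p = 0.0153), with both siFXR1-LNA libraries below both siCont ones. All 10 members showed that order, whose share over all genes was not counted. All 10 had an unadjusted p under 0.05, against 2076 of all 10593 genes. Psmb8 was at 637 and 729 (siCont) and 322 and 461 (siFXR1-LNA) (log2 fold change -0.87 ± 0.20 (SE), adjusted p = 0.0676) and Nlrc5 at 63.3 and 88.6 (siCont) and 31.5 and 42.7 (siFXR1-LNA) (log2 fold change -1.08 ± 0.26 (SE), adjusted p = 0.0726). DESeq2 called 5 members, and the count was 0 without siFXR1-LNA replicate 1, 7 without siCont replicate 1 and 1 without either of the others. The median over members was -0.70, against 0.01 over all genes. The median mitochondrial share was 0.618% and 0.683% (siCont) and 1.08% and 0.918% (siFXR1-LNA), and its part was not tested.

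Mature DCs, also a single subcluster, had the most calls. H2-K1, H2-D1 and H2-T23, all heavy chains, fell, 3 of the 10 members, where 1.73% of genes were called lower. H2-K1 stood at 3061 and 3481 (siCont) and 1734 and 2282 (siFXR1-LNA) CPM (log2 fold change -0.80 ± 0.18 (SE), adjusted p = 0.0459). H2-D1 stood at 3223 and 3465 (siCont) and 1478 and 2145 (siFXR1-LNA) (log2 fold change -0.98 ± 0.19 (SE), adjusted p = 0.0303). H2-T23 stood at 628 and 693 (siCont) and 287 and 384 (siFXR1-LNA) (log2 fold change -1.07 ± 0.23 (SE), adjusted p = 0.0403). In each of them, and in the other 7 members, both siFXR1-LNA libraries lay below both siCont libraries, an order whose share over all genes was not counted. B2m, at 3697 and 3987 (siCont) and 2854 and 2759 (siFXR1-LNA), missed the threshold (log2 fold change -0.55 ± 0.14 (SE), adjusted p = 0.068). The median over members was -0.84, against -0.01 over all genes, and DESeq2 called 2. The median mitochondrial share was 0.503% and 0.546% (siCont) and 0.981% and 0.694% (siFXR1-LNA), higher in the siFXR1-LNA libraries as in cDC2, and its part was not tested. The count was 7 without siCont replicate 1, 2 without siCont replicate 2, 1 without siFXR1-LNA replicate 1 and 5 without siFXR1-LNA replicate 2. With cells named from their own markers, or from clusters at resolution 0.3, no member was called.

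In the other 5 types edgeR called no member. In granulocytes 1 of 10 members had an unadjusted p under 0.05, against 2217 of all 12328 genes, and DESeq2 called 0 (1.98% of genes called lower). H2-T23 had the largest fitted change there, at 184 and 188 (siCont) and 82.5 and 123 (siFXR1-LNA) (log2 fold change -1.10 ± 0.42 (SE), adjusted p = 0.194), and without siCont replicate 1 there was 1 call. In B cells 7 of 10 had an unadjusted p under 0.05, against 1625 of all 12218 genes, and DESeq2 called 0 (0.0327% of genes called lower). Psmb8 was at 311 and 348 (siCont) and 106 and 238 (siFXR1-LNA) in B cells (log2 fold change -1.14 ± 0.39 (SE), adjusted p = 0.306). In T cells 5 of 10 had an unadjusted p under 0.05, against 1402 of all 12056 genes, with 1 DESeq2 call (0.124% lower). There Psmb8 stood at 351 and 407 (siCont) and 96.3 and 253 (siFXR1-LNA) (log2 fold change -1.31 ± 0.44 (SE), adjusted p = 0.339). In both lymphocyte types siFXR1-LNA replicate 1 was the lowest library for all 10 members. In cDC1 2 of 10 had an unadjusted p under 0.05, against 1205 of all 8961 genes, and DESeq2 called 0 (0.391% lower). B2m was nearly level there at 1482 and 1392 (siCont) and 1464 and 1321 (siFXR1-LNA) (log2 fold change -0.04 ± 0.16 (SE), adjusted p = 0.949). In mast cells none of the 5 tested had an unadjusted p under 0.05, against 200 of all 1999 genes, and DESeq2 called 0 (1.20% lower).

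**Figure D3:**
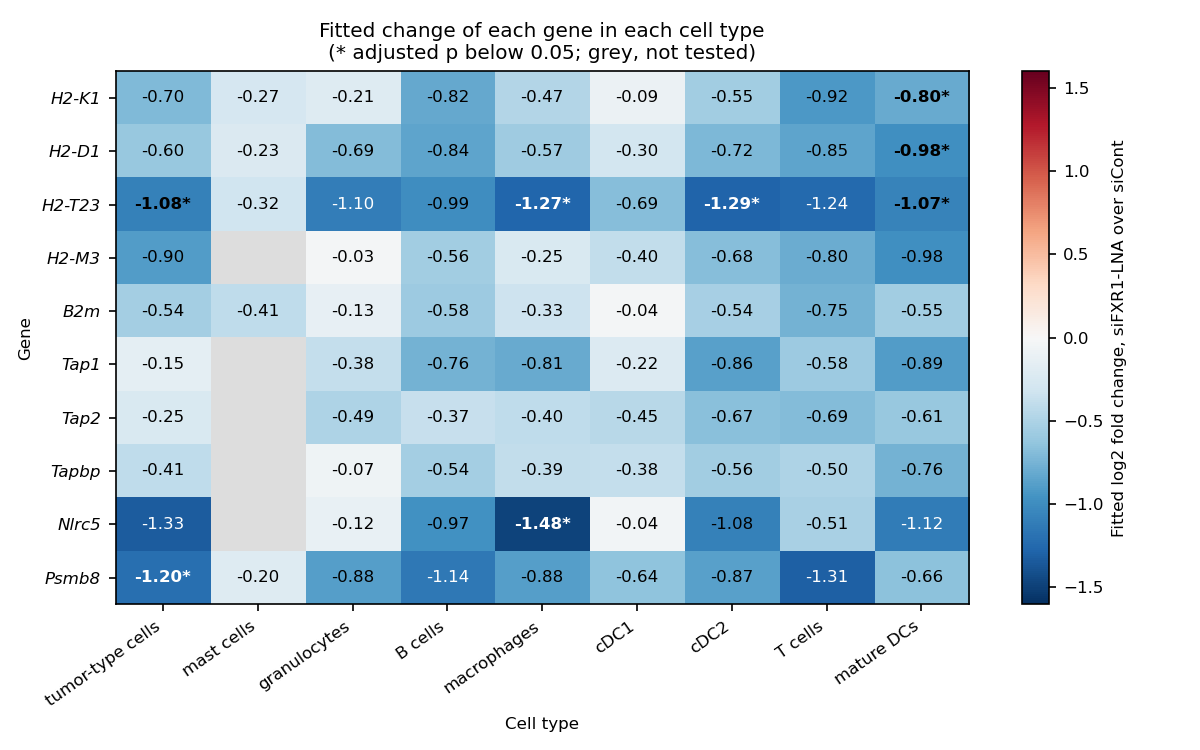
Fitted log2 fold change of each gene (rows) in each cell type (columns), siFXR1-LNA over siCont, from edgeR; blue is lower in the siFXR1-LNA libraries, an asterisk marks an adjusted p below 0.05 and grey a gene not tested. All values shown are below 0, and the row of H2-T23 holds 4 of the 8 asterisks.

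Whether the change differed between tumor-type cells and other types was tested directly, as the interaction of type and label, with subcluster 7.2 included. edgeR called no member against macrophages (0.608% of all genes called, 0 members with an unadjusted p under 0.05), granulocytes (0.715%, 1 member), B cells (0%, 0 members) or T cells (0%, 1 member). Of all genes, 2049 of 15946, 1398 of 13849, 1188 of 14000 and 951 of 13892 had an unadjusted p under 0.05, in the same order of types. The differences of log2 fold change, tumor-type minus the other type, ran from -0.62 ± 0.33 (SE) for H2-M3 to 0.63 ± 0.31 for Tap1 against macrophages, and from -1.13 ± 0.51 for Nlrc5 to 0.27 ± 0.46 for Tap1 against granulocytes. For H2-T23 they were 0.23 ± 0.32, 0.03 ± 0.45, -0.04 ± 0.32 and 0.21 ± 0.35 against macrophages, granulocytes, B cells and T cells. Errors of this size leave room for differences in either direction.

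Macrophages held subclusters of a single group beside shared ones. Subcluster 2.2 had 1033 and 713 siCont cells but 0 and 1 siFXR1-LNA cells. It was rich in Irf7, an interferon-induced transcription factor, at 970.1 and 1089 CPM, and held the highest level of each member plotted: H2-K1 at 2469.6 and 3039, B2m at 3302 and 3674, H2-T23 at 657 and 779.9, Nlrc5 at 92.5 and 106 and Psmb8 at 576 and 697. Subcluster 6.0 had 2036 and 1843 siFXR1-LNA cells but 0 and 1 siCont cells. Its Irf7 was at 25.2 and 34.02, H2-K1 at 1024 and 1085, H2-T23 at 123 and 134 and Nlrc5 at 9.94 and 12.1.

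In the 3 macrophage subclusters with at least 10 cells in every library, no member was called. In subcluster 2.0, with 2703, 1023, 50 and 1023 cells, H2-T23 stood at 272 and 220.3 (siCont) and 218 and 214 (siFXR1-LNA), and Nlrc5 at 42.3 and 29.1 (siCont) and 28.4 and 33.7 (siFXR1-LNA). The groups overlapped there for Nlrc5 and lay next to each other for H2-T23, and edgeR called none of 10 members, with 0 at an unadjusted p under 0.05 (0.0575% of genes called, median over members -0.11). In subcluster 2.1 it called none either, with 3 at an unadjusted p under 0.05 (3.02%, median -0.16). These 3 were Psmb8 at 269 and 249.5 (siCont) and 125 and 196 (siFXR1-LNA) (log2 fold change -0.82 ± 0.25 (SE), adjusted p = 0.121), Nlrc5 at 68.996 and 55.6 (siCont) and 16.1 and 49.3 (siFXR1-LNA) (log2 fold change -1.14 ± 0.42 (SE), adjusted p = 0.191) and H2-D1 at 922 and 896 (siCont) and 1419 and 1609.6 (siFXR1-LNA) (log2 fold change 0.62 ± 0.25 (SE), adjusted p = 0.232). The first 2 lay lower and H2-D1 higher in the siFXR1-LNA libraries. In subcluster 2.5, with 12 and 33 siFXR1-LNA cells, it called none, with 1 at an unadjusted p under 0.05 (0.0762%, median -0.39), which was H2-T23 at 326 and 276 (siCont) and 205 and 203 (siFXR1-LNA) (log2 fold change -0.55 ± 0.24 (SE), adjusted p = 0.714). Pooled over these 3 subclusters, 0 of 12964 genes and 0 members were called. The fitted changes of H2-T23 and Nlrc5 were below 0 in 2.1 and 2.5, and in 2.0 as well (-0.26 and -0.20). The part of the subcluster mix in the calls over all macrophages was not tested.

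**Figure D4:**
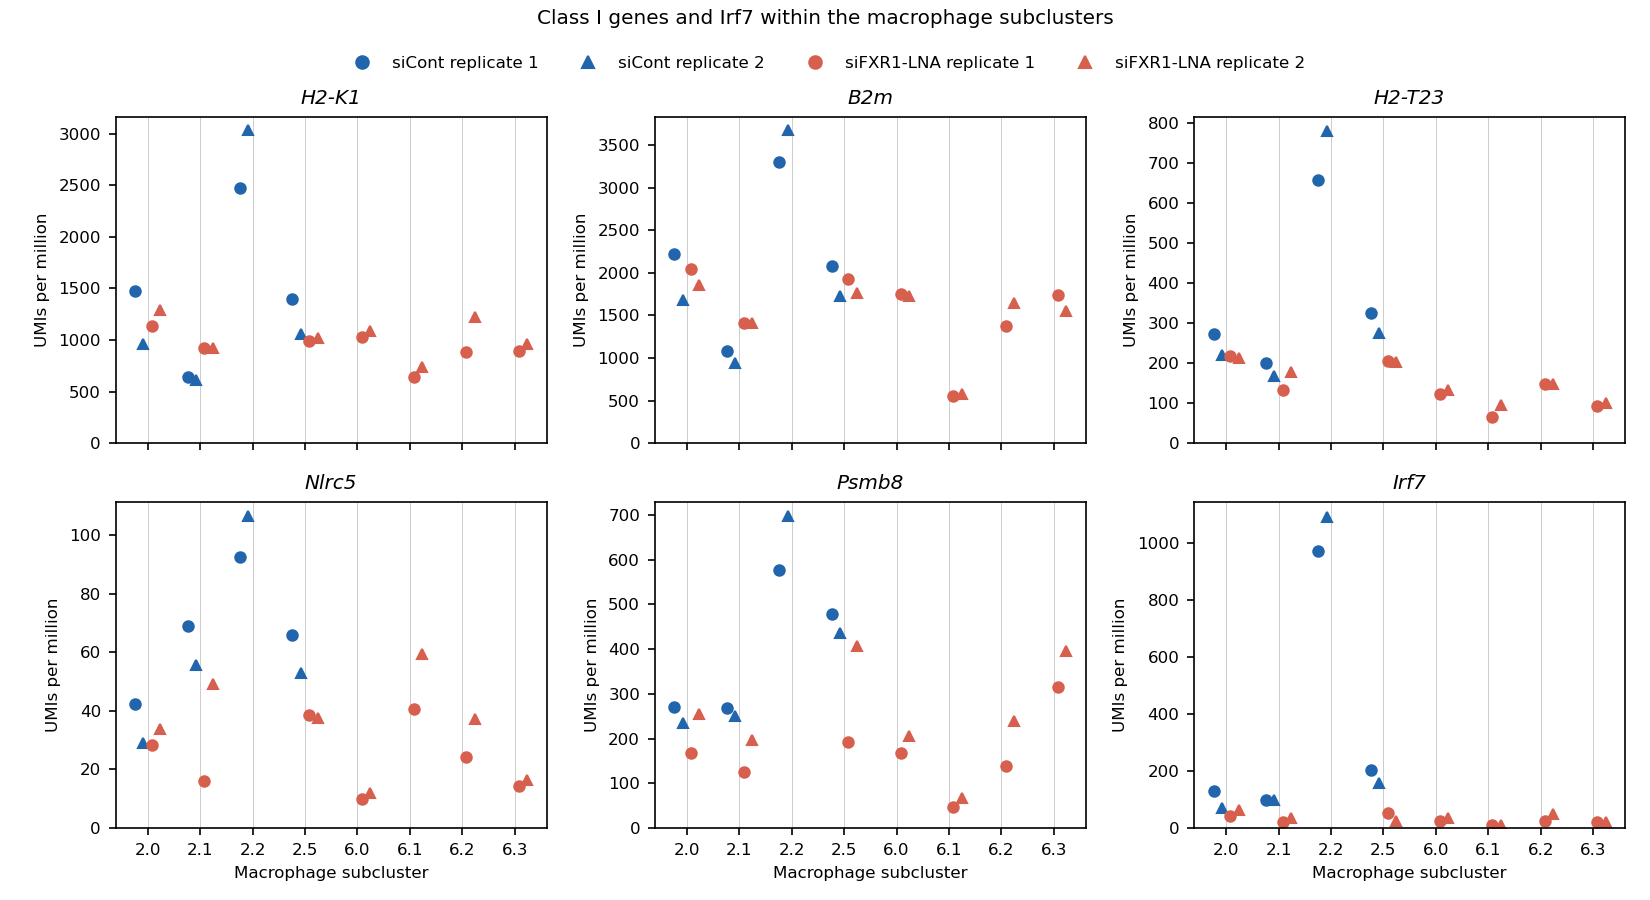
Levels (CPM, linear axes from 0) of H2-K1, B2m, H2-T23, Nlrc5, Psmb8 and Irf7 in 8 macrophage subclusters, 1 point a library with at least 10 cells. Subcluster 2.2, with siCont points only, is highest in all panels, and subclusters 6.0 to 6.3 have siFXR1-LNA points only.

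Granulocytes, T cells and B cells were also split by group. Granulocyte subcluster 3.0 made up 90.9% and 90.3% of the siFXR1-LNA granulocytes and 0% and 1.77% of the siCont ones. In subclusters 3.1 and 3.2, which both groups shared, none of 9 and none of 8 members was called, with 0 at an unadjusted p under 0.05 (backgrounds 1.19% and 3.29%, medians over members -0.33 and -0.09). T cell subclusters 5.2, 8.0 and 8.1 gave no call among 9, 10 and 9 members (2, 1 and 0 with an unadjusted p under 0.05, backgrounds 1.40%, 0.246% and 2.51%). Medians over members were -0.77, -0.66 and 0.17 in these 3. B cell subcluster 4.1 held 50 and 51 siCont cells (1.45% and 2.14% of the siCont B cells) against 809 and 533 of siFXR1-LNA (98.3% and 88.8%). There B2m rose while Nlrc5 fell. These 2 of 10 members are near the share over all genes, 16.6% called in either direction. Of the 10 members, 7 were fitted higher, with a median of 0.27, against 0.18 over all genes. B2m stood at 459 and 268 (siCont) and 908 and 1167 (siFXR1-LNA) (log2 fold change 1.93 ± 0.46 (SE), adjusted p = 0.0149). Nlrc5 stood at 171 and 309 (siCont) and 21.1 and 43.3 (siFXR1-LNA) (log2 fold change -2.56 ± 0.44 (SE), adjusted p = 0.00351). Malat1 in these cells was at 12929.8 and 15340.4 (siCont) and 2969 and 4449 (siFXR1-LNA), and its part in the result was not tested.

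Other genes of the pathway were taken from lists chosen with earlier results of these data known. Of the other heavy chain genes (13 in the tables), 4 of 9 tested fell in macrophages, 4 of 7 in cDC2, 3 of 7 in mature DCs, 2 of 7 in tumor-type cells, 1 of 8 in granulocytes and 1 of 8 in T cells. Of all genes tested, 9.53%, 1.95%, 1.73%, 4.89%, 1.98% and 0.124% were called lower in these types, in the same order. None of 7 in B cells or 5 in cDC1 was called, and none rose in any type. H2-T24, a nonclassical heavy chain gene, was called in 6 types. In macrophages it stood at 36.4 and 36.5 (siCont) and 3.06 and 7.195 (siFXR1-LNA) CPM (log2 fold change -2.63 ± 0.39 (SE), adjusted p = 0.0156). In granulocytes it stood at 35.7 and 36.3 (siCont) and 4.98 and 7.93 (siFXR1-LNA) (log2 fold change -2.73 ± 0.42 (SE), adjusted p = 0.0094). In both types the siFXR1-LNA values were below the siCont ones. H2-T24 was also called in cDC2 (log2 fold change -2.71 ± 0.52 (SE), adjusted p = 0.0346), T cells (log2 fold change -2.85 ± 0.36 (SE), adjusted p = 0.0491) and tumor-type cells (log2 fold change -2.36 ± 0.59 (SE), adjusted p = 0.0378).

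In mature DCs H2-T24 had 42 siCont UMIs and 0 siFXR1-LNA UMIs, which makes it at least 4.55-fold lower in the latter at a floor of 3 UMIs over the group. H2-Q7, a nonclassical gene of the Q region, fell in tumor-type cells, at 31.2 and 47.97 (siCont) and 9.66 and 12.9 (siFXR1-LNA) (log2 fold change -1.76 ± 0.32 (SE), adjusted p = 0.011), and in cDC2 (log2 fold change -1.41 ± 0.20 (SE), adjusted p = 0.0111) and macrophages (log2 fold change -0.98 ± 0.21 (SE), adjusted p = 0.0344). H2-T22 fell in macrophages, cDC2 and mature DCs, with log2 fold changes of -0.88, -1.21 and -1.38. The lipid-presenting Cd1d1 fell in cDC2 (log2 fold change -1.53 ± 0.28 (SE), adjusted p = 0.0314), H2-M2 in mature DCs (log2 fold change -2.08 ± 0.42 (SE), adjusted p = 0.0328) and H2-Q6 in macrophages (log2 fold change -1.05 ± 0.23 (SE), adjusted p = 0.0391).

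Of 9 other loading and immunoproteasome genes, 3 fell in cDC2, 2 in macrophages, 2 in mature DCs and 1 in tumor-type cells, and none rose. Of all genes tested, 1.95%, 9.53%, 1.73% and 4.89% were called lower there, in the same order of types. Psmb9, whose annotated start overlaps that of Tap1 on the other strand and which encodes another immunoproteasome subunit, fell in macrophages, where it stood at 169 and 202 (siCont) and 64.1 and 82.9 (siFXR1-LNA) (log2 fold change -1.15 ± 0.19 (SE), adjusted p = 0.0193), and in cDC2 and mature DCs with log2 fold changes of -0.91 and -1.004. Psmb10, the remaining immunoproteasome subunit, fell in tumor-type cells, at 36.3 and 43.2 (siCont) and 9.996 and 17.3 (siFXR1-LNA) (log2 fold change -1.55 ± 0.31 (SE), adjusted p = 0.016), and in macrophages and cDC2. Psme2, a subunit of the proteasome activator, fell in cDC2 and mature DCs, with log2 fold changes of -0.74 and -0.81. The constitutive subunits Psmb5, Psmb6 and Psmb7, which the immunoproteasome subunits replace, had no called change in any type, and their median lay between -0.33 and 0.30 over the 9 types.

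Genes of interferon-gamma signalling moved in both directions in macrophages. Socs1, a feedback inhibitor of this pathway, fell in macrophages and cDC2 (log2 fold changes -1.21 and -1.83), and Irf1, an interferon-induced transcription factor, fell in macrophages (log2 fold change -1.03 ± 0.21 (SE), adjusted p = 0.0318). The kinase gene Jak2 rose in macrophages, where it stood at 42.5 and 37.9 (siCont) and 56 and 53.2 (siFXR1-LNA) (log2 fold change 0.63 ± 0.11 (SE), adjusted p = 0.0237).

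Of 5 receptors that read class I, Pirb, an inhibitory receptor of myeloid cells, rose in macrophages, where it stood at 225 and 247 (siCont) and 314 and 382 (siFXR1-LNA) (log2 fold change 0.74 ± 0.17 (SE), adjusted p = 0.0395). It rose in tumor-type cells too, at 12.4 and 7.68 (siCont) and 31.6 and 23.3 (siFXR1-LNA) (log2 fold change 1.39 ± 0.33 (SE), adjusted p = 0.0307), beside granulocyte markers there of 99.6 and 163 (siCont) and 1285 and 871 (siFXR1-LNA) CPM, whose part in it was not tested. Klrd1, a chain of an NK cell receptor for the H2-T23 product, fell in macrophages at 5.24 and 4.85 (siCont) and 0.481 and 1.45 (siFXR1-LNA) (log2 fold change -2.16 ± 0.52 (SE), adjusted p = 0.0482). The NK cell markers summed there to 3.38 and 4.56 (siCont) and 0.525 and 1.97 (siFXR1-LNA) CPM, and the part of NK cell RNA was not tested. Cd8a fell in mature DCs, with 62 siCont UMIs and 0 siFXR1-LNA UMIs, at least 6.72-fold lower in the latter at the same floor. The list of T cell markers, which holds Cd8a itself, summed in mature DCs to 105 and 78.8 (siCont) and 8.71 and 34.6 (siFXR1-LNA) CPM, and the part of T cell RNA was not tested. No receptor was called in granulocytes, B cells, T cells, cDC1 or cDC2. Without subcluster 7.2, the calls of H2-T24, Psmb10 and Pirb in tumor-type cells were lost and that of H2-Q7 held. Of 42 calls of members and pathway genes together, 9 of 42 held without siFXR1-LNA replicate 1 and 24 of 42 without siFXR1-LNA replicate 2. Of the 41 that could be tested under the other settings, 26 held without siCont replicate 2, 34 without siCont replicate 1 and 11 with cells named from their own markers.

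Marker levels of other cells moved with the labels beside these results. Hemoglobin and the other erythrocyte markers summed in macrophages to 59061 to 82504 (siCont) and 12742 to 29695 (siFXR1-LNA) CPM, in cDC2 to 79153 to 99843 (siCont) and 16335 to 29451 (siFXR1-LNA), in mature DCs to 72745 to 94161 (siCont) and 28595 to 44802 (siFXR1-LNA) and in tumor-type cells to 66740.4 to 88782 (siCont) and 16127 to 27478 (siFXR1-LNA). Granulocyte markers summed in macrophages to 124 to 435 (siCont) and 1305 to 1543 (siFXR1-LNA), in cDC2 to 126 to 942 (siCont) and 1030.2 to 1849.7 (siFXR1-LNA) and in mature DCs to 78.6 to 363 (siCont) and 1487 to 4048 (siFXR1-LNA). B cell markers summed in mature DCs to 255 to 338 (siCont) and 60.98 to 64.7 (siFXR1-LNA), in macrophages to 76.4 to 87.9 (siCont) and 26.5 to 39.03 (siFXR1-LNA) and in tumor-type cells to 106 to 137 (siCont) and 27.3 to 28.1 (siFXR1-LNA), and overlapped between the groups in cDC2. Mast cell markers summed in macrophages to 296 to 899 (siCont) and 42.4 to 54.4 (siFXR1-LNA), in cDC2 to 368 to 1121 (siCont) and 133 to 140.0 (siFXR1-LNA), in mature DCs to 366 to 1048 (siCont) and 119 to 132 (siFXR1-LNA) and in tumor-type cells to 348 to 762 (siCont) and 168 to 214 (siFXR1-LNA). In macrophages the pDC markers summed to 753 to 807 (siCont) and 187 to 237 (siFXR1-LNA), the cDC2 markers to 123 to 157 (siCont) and 33.4 to 38.6 (siFXR1-LNA), the cDC1 markers to 127 to 145 (siCont) and 59.2 to 61.7 (siFXR1-LNA) and the platelet markers to 770.2 to 1535 (siCont) and 2227 to 2249 (siFXR1-LNA). The markers of cDC2 themselves summed in cDC2 to 2472 to 2653 (siCont) and 776 to 1437 (siFXR1-LNA), lower in the siFXR1-LNA libraries. All 5 erythrocyte markers were detected in each of these types and libraries, and 6 or 7 of the 7 granulocyte markers and 5 or 6 of the 6 B cell markers. Erythrocyte and mast cell markers were lower and granulocyte markers higher in the siFXR1-LNA libraries in all 4 types. With hemoglobin genes left out of the counts, members called were 2 in tumor-type cells, 4 in macrophages, 1 in cDC2 and 3 in mature DCs. The part of RNA from granulocytes, B cells, NK cells, mast cells, dendritic cells and platelets in the results was not tested.

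The 10 members varied together over the 44 sums of a library and type (12 types). Pearson's r between members, on log2 levels with a pseudocount of 10 CPM, ran from 0.69 for H2-M3 and Tap2 to 0.95 for Tap1 and Psmb8, and was 0.94 for H2-K1 and H2-D1. The genes outside the pathway lists whose levels were most like the mean of the 10, of 6578 considered, were Sri (r = 0.932), Sp110 (0.932), Tma7 (0.930), Epsti1 (0.910) and Actr3 (0.903). These correlations are descriptions over sums that share libraries, and their depth and free RNA.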

How the data were processed

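The authors aligned the reads to mm10 and counted unique molecular identifiers with Cell Ranger (7.0.0 in the submitters' processing notes and the matrix headers) and deposited raw UMI counts per gene and barcode, 1 filtered matrix a library, which start this work. Total counts were 78179267 to 113606837 a library. Barcodes were filtered to 100 to 4800 detected genes with a mitochondrial share up to 15%, clustered with Seurat 5.3.0 (2000 variable genes, 50 principal components, resolution 0.1) and subclustered. A cluster was named when at least 50% of a marker list was raised (2-fold over the mean of the other clusters, in at least 5% of its cells). This scoring rule was written after the clusters were seen, and the members and lists were chosen with earlier results of these data known. Doublets were not removed in the main analysis, and removing the 5% of cells with the highest Scrublet scores was an alternative. No single cells were treated as replicates.

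UMI counts were summed per library and type (at least 10 cells in every library) and tested with edgeR 4.0.16 (TMM, filterByExpr, quasi-likelihood test, Benjamini-Hochberg over all genes tested, threshold 0.05), with DESeq2 1.42.0 as an alternative. Tests were checked on simulated counts. Levels are CPM of UMIs. Groups were taken from the sample titles. The text names all 10 members and, from the pathway lists, genes past the threshold (at most the 4 with the largest change a list and type), the 5 genes most like the members, and Fxr1. Of 32285 gene identifiers, 32158 (99.6%) were in GENCODE vM21. Other alternatives were size factors, no low-count filter, a replicate block, each library left out, other cell filters and names, and hemoglobin left out. Free RNA was not removed. A gene of the interferon-gamma list, and with it the counts over that list, is not reported here. The study's methods name an excluded siFXR1-LNA replicate without saying which, and all 4 libraries were used here.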

Additional observations from a re-analysis of the deposited data

How the results depend on the processing

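With 2 pooled libraries a group, counts of called members moved with the libraries and settings. The 42 called changes of named genes kept their sign under the alternatives run for whole types, 512 on the same side of the threshold and 162 no longer past it. Within single subclusters some members were higher in the siFXR1-LNA libraries, B2m in B cell subcluster 4.1 among them. Of the 8 calls of members, 8 held with a replicate block, without the low-count filter, without hemoglobin genes and without shared barcodes, 7 with DESeq2, 6 with RLE size factors, 6 without the highest Scrublet scores, 5 at resolution 0.3 and 2 with cells named from their own markers. Within subclusters of both groups 4 stood, all in cDC2 and mature DCs. Each of these types is a single shared subcluster, so that setting only repeats the main test there. The calls in tumor-type cells and macrophages, which it could change, were all lost. With each library left out in turn the members called ranged from 0 to 6 in tumor-type cells, 0 to 3 in macrophages, 0 to 1 in granulocytes, 0 to 7 in cDC2 and 1 to 7 in mature DCs, and only 1 of the 8 calls held without siFXR1-LNA replicate 1. Members called were otherwise, in tumor-type cells (2), 0 with cells named from their own markers, in subclusters of both groups, without subcluster 7.2, and within 7.1 or 7.3, and 3 without the filter or with the block. In macrophages (2) they were 6 with DESeq2, 4 without the filter, with the block, without hemoglobin genes or with mixed subclusters kept, 1 with cells named from their own markers, and 0 in subclusters of both groups and within 2.0, 2.1 or 2.5. In B cells (0) they were 5 without the filter and with the block, and 2 in subclusters of both groups and within 4.1. They were 1 with DESeq2 and 2 without the filter in T cells (0), and 2 without the filter in cDC1 (0). In cDC2 (1) they were 5 with DESeq2, 9 without the filter, 10 with the block and 2 at resolution 0.3. In mature DCs (3) they were 6 without the filter, 9 with the block, 1 with RLE size factors or without the highest Scrublet scores, and 0 at resolution 0.3 or with cells named from their own markers. The cause was not tested.

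The replicate block used numbers that the labels give to both groups without saying that they mark a shared day or batch. Deviations of same-numbered libraries correlated from 0.01 in tumor-type cells to 0.37 in granulocytes, over 2 pairs only, so the numbers were not taken to pair the libraries. Genes called with the block and without it were 1652 and 1032 in tumor-type cells, 969 and 347 in granulocytes, 1186 and 21 in B cells, 345 and 40 in T cells, 269 and 99 in cDC1, 1431 and 377 in cDC2, 682 and 246 in mature DCs and 12 and 45 in mast cells. DESeq2 called 538 in granulocytes, 369 in B cells and 336 in T cells. The difference in the share of tumor-type cells with a class I UMI, 4.09 percentage points, became -0.563 without siCont replicate 2 and ranged from -3.06 (without siFXR1-LNA replicate 2) to 11.2 (without siFXR1-LNA replicate 1) with each library left out. Of the levels by type, 334 moved by less than the spread between libraries and 26 by more (19 with cells named from their own markers and 7 without hemoglobin genes). Alternatives with subclusters, shared barcodes and left-out libraries for the share were chosen after seeing the data. Low depth limits mast cells, where 5 members were not tested, and NK cells, which had 5 and 9 cells in the siFXR1-LNA libraries and no test. Plasmacytoid dendritic cells were named only at resolution 0.3 (edgeR called 0 of 6 members, 2 with an unadjusted p under 0.05) and from cells' own markers (0 of 8, 5 with an unadjusted p under 0.05). Of all genes tested in them, 121 of 1368 and 277 of 1816 had an unadjusted p under 0.05.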
